A study of Mus musculus with 5 samples.

Results

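The antigen receptor loci of the mouse hold the gene segments from which antibodies and T cell receptors are assembled. The replication initiation zones in 4 of these loci were examined in embryonic stem cells, which make neither product. The loci were taken as fixed intervals of build mm9: Igh (immunoglobulin heavy chain) at chr12:114400000-117200000, Igk (kappa light chain) at chr6:67500000-70700000, Tcra with the nested Tcrd (T cell receptor alpha and delta chains) at chr14:53000000-54900000, and Tcrb (beta chain) at chr6:40800000-41550000. Every zone that overlapped an interval by at least 1 bp was a member. This gave 31 zones in 8.65 Mb, of 35512 in the list (0.0873%): 12 in Igh, 8 in Igk, 8 in Tcra and 3 in Tcrb.

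Nascent DNA strands of 0.5 to 2 kb were isolated from CGR8, an established line of mouse embryonic stem cells kept undifferentiated with leukaemia inhibitory factor in serum and without feeder cells. There were 5 samples: 3 nascent strand preparations from independent cultures, 1 control of sonicated genomic DNA put through the same lambda exonuclease digestion, and 1 control treated with RNase A before digestion, which strips the RNA primers that shield nascent strands. No sample carries a genotype change or a drug treatment in its labels. The list analysed pools the 3 nascent strand preparations and gives only positions, so no spread between cultures, no read depth and no value for either control can be given. Expression was not measured in this list, so whether the loci are silent in these cells was not examined here.

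An antigen receptor locus is built of many variable (V) segments, shorter groups of joining (J) and, in some loci, diversity (D) segments, and constant (C) regions. In developing lymphocytes the RAG recombinase cuts beside chosen segments and joins them into 1 exon, so that each cell makes its own receptor. In other cell types the segments keep their germline order. Replication of such a locus must then be served by origins inside it or by forks that enter from its neighbours, and origins are generally denser in gene-rich, early replicating chromatin.

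The order of segments was read from the RefSeq gene table of GRCm38.p6. That table is of another build, so only names and neighbours were used and no zone can be assigned to a gene. Igh starts at low coordinates with the constant region Igha, next to Tmem121, Tedc1 and Crip1, and ends with Ighv1-86 before Zfp386 and Vipr2. It lists 183 V, 20 D, 4 J and 8 C entries, pseudogenes included. Igk runs the other way, from Igkv2-137 through 162 V entries, to 5 J entries and the constant gene Igkc, followed by Rpia and Eif2ak3. Tcra runs from Trav1, among olfactory receptor genes, through 136 V, 2 D and 62 J entries to Trac, followed by Dad1, Abhd4 and Olfr49. Tcrb runs from Trbv1, after Moxd2 and Mgam, to the constant genes and a last V segment, Trbv31, followed by Ephb6 and Trpv6. Between its segments Tcrb holds 13 protein-coding genes of other kinds, among them the trypsin-family genes Try4, Try5, Prss1 and Prss2.

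Whether zones are sparser inside the loci than beside them was asked first. The 4 loci together held 3.58 zones per Mb (exact 95% Poisson interval 2.44 to 5.09), and 1 Mb on each side of them held 167 zones in 8 Mb, or 20.9 per Mb. The loci were thus 5.82 times lower, with a ratio to the flanks of 0.172 (exact conditional 95% interval 0.113 to 0.253). These intervals cover counting error only. Zones covered 0.994% of the loci and 11.9% of the flanks.

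Igh held 4.29 zones per Mb (2.21 to 7.49) and its flanks 29 per Mb, a ratio of 0.148 (0.0722 to 0.278). The flanks of Igh were unequal, with 47 zones in the 1 Mb on the constant region side and 11 on the V side. Against the V side flank alone the ratio was 0.39 (0.157 to 0.975). Igk held 2.5 zones per Mb (1.08 to 4.93) and its flanks 17.5, a ratio of 0.143 (0.0572 to 0.313). Here the flank beyond the V end held 11 zones and the flank beyond Igkc held 24. Against the V side flank alone the ratio was 0.227 (0.0794 to 0.62). Tcra held 4.21 zones per Mb (1.82 to 8.30) and its flanks 26, a ratio of 0.162 (0.0664 to 0.343), with 23 zones on the V side and 29 on the constant side.

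Tcrb, the shortest of the 4 loci, held 4 zones per Mb (0.825 to 11.7) and its flanks 11. Its ratio of 0.364 had an interval of 0.0697 to 1.21, so with 3 zones a difference from its flanks was not detectable. The other 3 ratios had intervals wholly below 1.

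**Figure D1:**
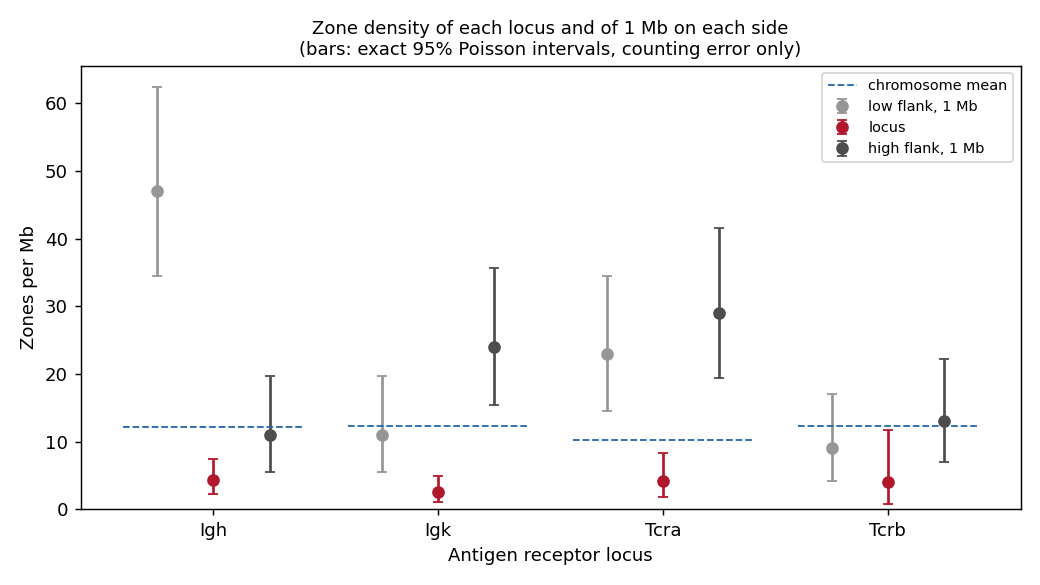
Zones per Mb (y axis) in each locus (red) and in the 1 Mb on its low-coordinate (light grey) and high-coordinate side (dark grey), with exact 95% Poisson intervals for counting error; the dashed line is the mean of the chromosome. Each locus lies below both of its flanks, and the constant region side of Igh is the highest at 47.

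Some of the flanks were richer in zones than most windows of their chromosome, and others were not. Along chromosome 12, windows of 1 Mb placed every 100 kb held a median of 10 zones (quartiles 4 and 17), and 0.341% of them held 47 or more, as the constant side of Igh did. The V side of Igh, with 11 zones, was reached by 45.3% of them. Chromosome 14 windows held a median of 8 zones, and the flanks of Tcra at 23 and 29 were reached by 9.18% and 3.31% of them. On chromosome 6, with a median of 9, the flank beyond Igkc at 24 zones was reached by 15.7% of windows. The flank before the V end of Igk was reached by 45.9%, and the flanks of Tcrb by 53.4% and 41.1%. The low ratios of Igh and Igk thus set a sparse locus against a zone-rich flank on the constant side only. Those flanks exceeded the upper quartile of windows, 17 on chromosome 12 and 19 on chromosome 6. The V side flanks of Igh and Igk, at 11 zones, lay just above the medians. Against these flanks alone both ratios were higher, but their intervals stayed below 1. Both flanks of Tcra exceeded the upper quartile of chromosome 14, which was 16.

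Each locus was then compared with intervals of its own size shifted along its chromosome in steps of 100 kb. The shares below describe where a locus stands. They are no test, because neighbouring shifted intervals overlap. All 4 loci had fewer than 0.5 times the mean zone density of their chromosome, which was 12.1 zones per Mb for chromosome 12, 12.3 for chromosome 6 and 10.2 for chromosome 14. The same held for 30.7% of the shifted intervals for Igh, 31% for Igk, 33.5% for Tcra and 36.9% for Tcrb. Low density of this degree was therefore common along these chromosomes.

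By zone number, Igk had the lowest share with the borders as given. With borders 100 kb inward the order turned, at 8.03% for Igk and 5.18% for Igh. Its 8 zones compare with a median of 36 in 1327 shifted intervals, and 8.36% held as few or fewer. The 12 zones of Igh compare with a median of 26 in 1096 intervals, with 19% as few or fewer. The 8 zones of Tcra compare with a median of 17 in 1160 intervals, with 30.3% as few or fewer. The 3 zones of Tcrb compare with a median of 7 in 1401 intervals, with 31.2% as few or fewer. Shifted intervals of the size of Igh ran from 1.07 to 41.1 zones per Mb, a far wider spread than counting error gives.

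The contrast with the flanks stood out more than the number of zones. When each shifted interval was set against its own 1 Mb on each side, a ratio as low as that of Igh occurred in 0.465% of 1076 intervals. The share was 1.15% of 1307 intervals for Igk, 1.93% of 1140 for Tcra and 15% of 1381 for Tcrb. The median ratio of shifted intervals lay between 0.889 and 1.02. This description was added after the low ratios had been seen.

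**Figure D2:**
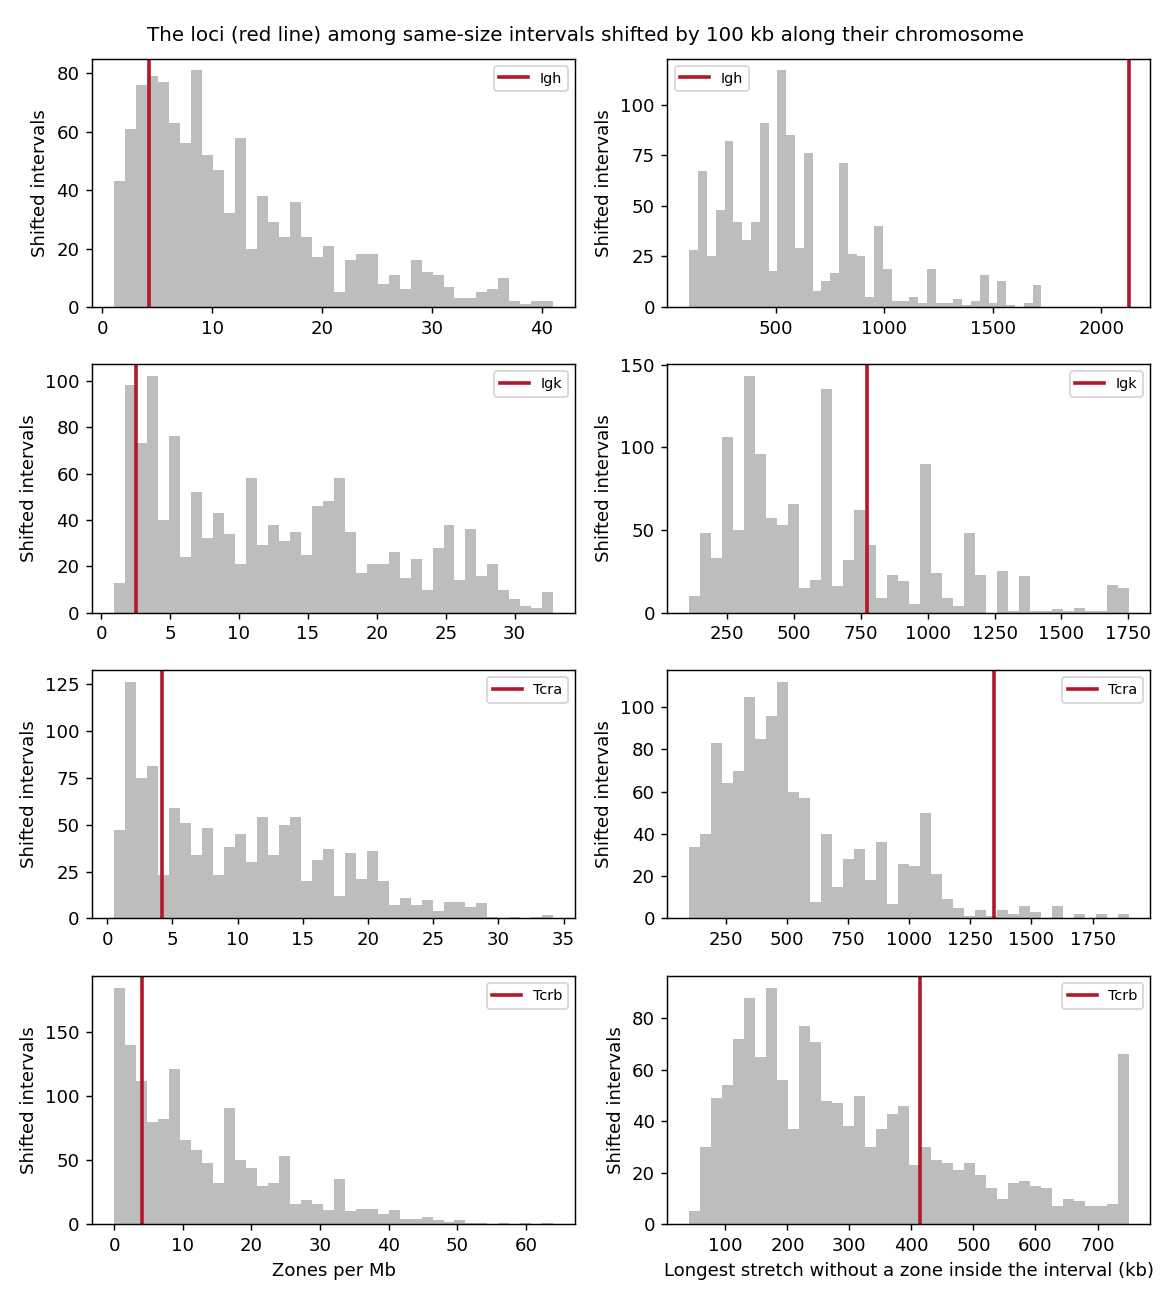
Histograms of same-size intervals shifted by 100 kb along the chromosome of each locus, by zones per Mb (left) and by the longest stretch without a zone inside the interval in kb (right); the y axes count intervals and the red line is the locus. The loci lie in the lower part of the density distributions without being extreme. The longest stretch in Igh lies beyond all 1096 shifted intervals, which follows from its being the longest on chromosome 12. The bar at the right end for Tcrb is intervals with no zone.

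Where the zones lay inside each locus was described next. In Igh 10 of the 12 zones lay in the 300 kb next to the low border, which is the constant region end, at 33.3 zones per Mb (16.0 to 61.3). The other 2.5 Mb held 2 zones, or 0.8 per Mb (0.0969 to 2.89). The 300 kb cut was chosen after the data had been seen. Both intervals leave that choice out of account, so the contrast is a description only. The first zone, chr12:114364401-114407000, was 42.6 kb wide, straddled the border and was by far the widest of the 31. Zones of 1.6, 9, 1.6, 3.6, 4.4, 2.2, 1.8, 5.8 and 1.2 kb followed in this order, ending with chr12:114685201-114686400. The first 7 lay within 100 kb of the border. Because Tmem121 and its neighbours adjoin Igha in the gene order, and no mm9 gene position was used, how many of these 10 lie in constant genes and how many before them cannot be told apart here.

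Beyond chr12:114686400 no zone was listed for 2.13 Mb. This stretch, chr12:114686401-116812400, took up 75.9% of the Igh interval. It was the longest between neighbouring zones on chromosome 12 and ranked 19 among 35119 such stretches on the autosomes. Because the shifted intervals leave out the locus, it follows from this rank that none of the 1096 held one as long. Their median longest stretch was 532 kb. The 2 zones after it, chr12:116812401-116814800 (2.4 kb) and chr12:116902201-116903800 (1.6 kb), lay 385 and 296 kb from the V border.

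Tcra had a similar but looser layout with the sides exchanged, as its constant genes are at high coordinates. At the cut chosen after seeing the data, its last 300 kb held 4 of 8 zones, against 10 of 12 in Igh. Of its 8 zones, 6 lay in the last 500 kb: chr14:54450801-54453200 (2.4 kb), chr14:54507201-54508800 (1.6 kb), chr14:54615001-54616400 (1.4 kb), chr14:54788801-54793200 (4.4 kb), chr14:54847001-54856600 (9.6 kb) and chr14:54882801-54888400 (5.6 kb). The 3 nearest to the border were also the widest. Because Dad1 and Abhd4 follow Trac in the gene order, whether these 3 lie in receptor genes or beyond them cannot be told apart here. At the V end there were 2 zones, chr14:53017401-53020000 (2.6 kb) and chr14:53103201-53104200 (1 kb). Between them lay chr14:53104201-54450800, 1.35 Mb without a zone and 70.9% of the locus. It ranked 4 on chromosome 14 and 59 among the autosomal stretches, and 2.33% of the shifted intervals held one as long.

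In Igk zones were scattered along the interval. Near the V border lay chr6:67576201-67578000 (1.8 kb), chr6:67613001-67616000 (3 kb) and chr6:67631401-67633200 (1.8 kb). The remaining 5 lay far from one another: chr6:68407801-68409000 (1.2 kb), chr6:68813401-68814800 (1.4 kb), chr6:69276801-69277400 (0.6 kb), chr6:69874001-69875200 (1.2 kb) and chr6:70303201-70303800 (0.6 kb). The last of them had 6 other zones within 500 kb. Neighbouring zones in Igk were a median of 428 kb apart, against 30.8 kb on chromosome 6. Its longest stretch without a zone, chr6:67633201-68407800, measured 775 kb, and 28.9% of the shifted intervals held one as long. The constant region end of Igk was not the richer one, since its last 300 kb held no zone and the first 300 kb held 3, although the flank beyond it held 16 zones in its nearer 500 kb.

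Tcrb had its 3 zones together in the middle: chr6:41086601-41088600 (2 kb), chr6:41105401-41106000 (0.6 kb) and chr6:41135601-41136600 (1 kb). They were separated by 16.8 kb at the closest and 29.6 kb at the widest. No zone was listed in the 287 kb before them or in the 413 kb after them, and the longest stretch inside the locus, chr6:41136601-41550000, was matched in 24.6% of the shifted intervals. Whether these zones lie among V segments or at the trypsin-family genes cannot be read without mm9 gene positions.

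**Figure D3:**
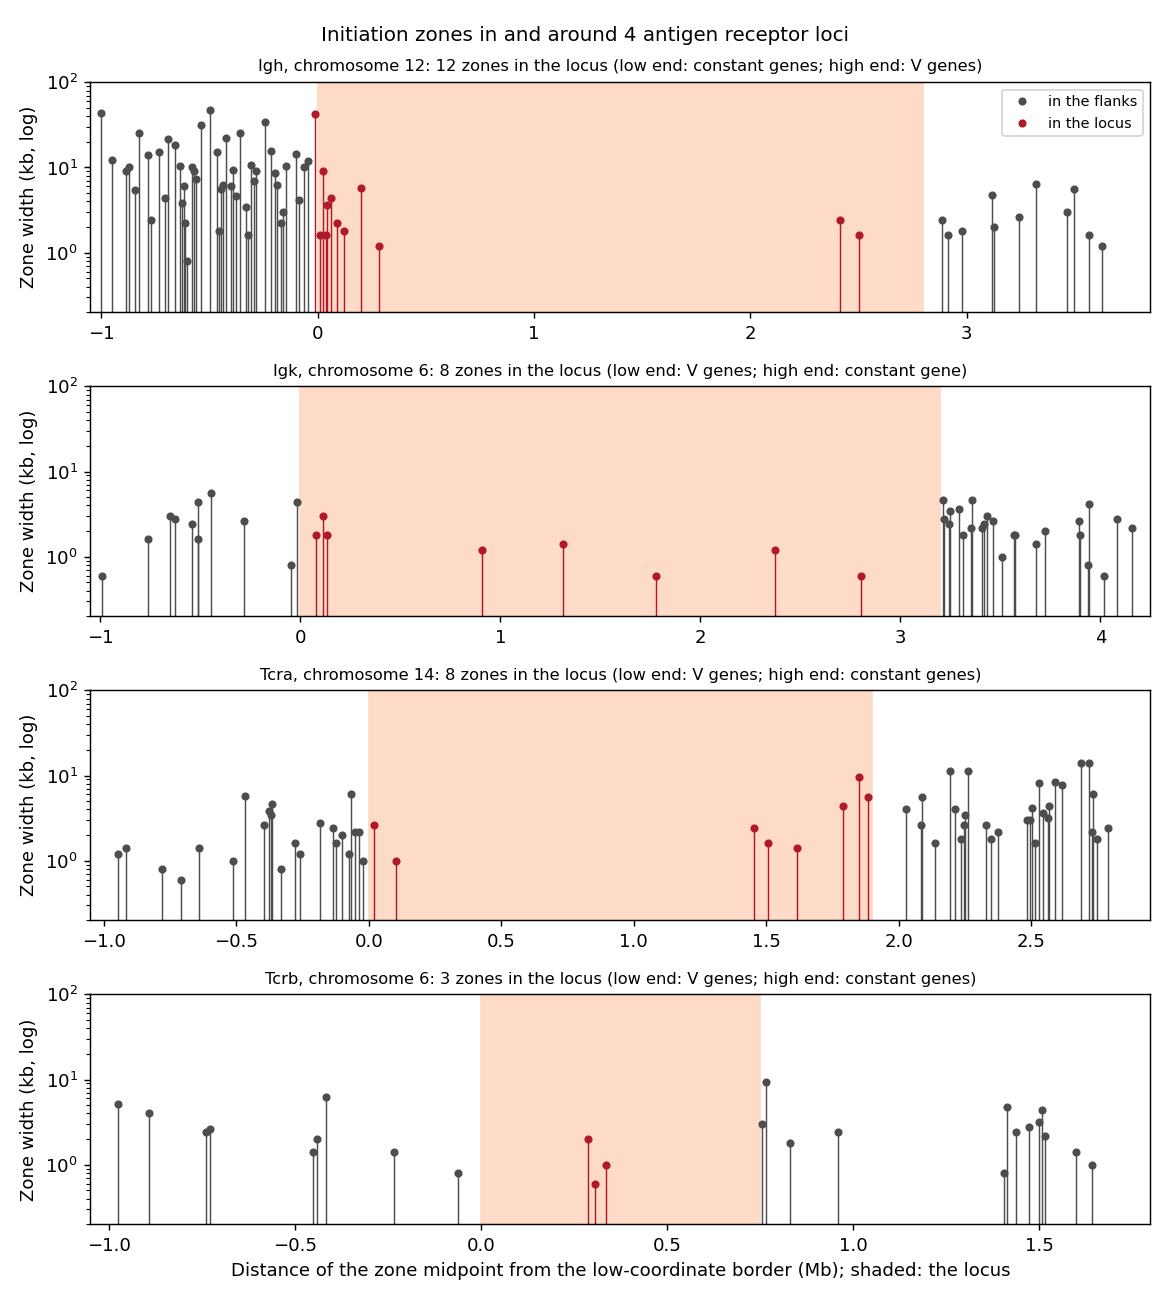
Each point is 1 zone, with the distance of its midpoint from the low-coordinate border of the locus in Mb (x axis) and its width in kb on a log scale (y axis), for the locus (red, shaded) and 1 Mb on each side (grey). Zones of Igh and Tcra gather at the constant region end with long empty stretches beyond, those of Igk are scattered, and those of Tcrb sit together in the middle.

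With each locus divided into 3 equal parts from low to high coordinates, Igh held 10, 0 and 2 zones, Igk 4, 2 and 2, Tcra 2, 0 and 6, and Tcrb 0, 3 and 0. The fullest part held 83.3% of the zones in Igh, against a median of 50% in shifted intervals with at least 3 zones, and 2.37% of those were as uneven. The corresponding shares were 51.5% for Igk, 10.96% for Tcra and 2.14% for Tcrb, where 3 zones leave few possible values. These shares were computed after the layout had been seen. The shifted intervals were not matched to the locus by zone number, and most held more zones. A small number of zones falls unevenly more easily, so the shares also depend on zone number.

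The zones nearest to the borders show what the choice of interval includes. On the constant side of Igh the next zone outside was chr12:114349601-114361400 (11.8 kb), 38.6 kb from the border. Igk had zones 13.6 kb before and 12.6 kb after its borders, and none inside within 76.2 kb of the first or 396 kb of the second. For Tcra the nearest zones outside were 20.4 and 125 kb away, and inside 17.4 and 11.6 kb. For Tcrb they were 60.2 and 4 kb away. With the borders of Igh moved 100 kb inward, so that its outer 100 kb counted as flank, its ratio fell to 0.0611 and 5.18% of shifted intervals held as few zones.

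Zone width was compared last. The 31 zones had a median width of 1800 bp, with quartiles of 1300 and 3300 bp and a range of 600 to 42600 bp. The 167 zones of the flanks had a median of 3000 bp (1800 and 6000 bp), and the other autosomal zones 2600 bp (1600 and 4600 bp). One zone in the loci, at the border of Igh and mostly outside it, reached 10 kb, against 26 in the flanks. Of those 26, 22 were in the flanks of Igh. Median widths were 2300 bp in Igh, 1300 bp in Igk, 2500 bp in Tcra and 1000 bp in Tcrb, and in their flanks 6700, 2400, 2600 and 2400 bp. In Tcra the locus and its flanks thus differed by 100 bp, less than 1 step of the 200 bp grid on which zones lie. Zones of 1 locus are not replicates, and no test of width was made.

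The widest zone beside each locus was 47 kb for Igh (chr12:113876801-113923800, constant side), 5.6 kb for Igk (chr6:67050401-67056000, V side), 14 kb for Tcra (chr14:55681001-55695000, constant side) and 9.4 kb for Tcrb (chr6:41562201-41571600, constant side). On the opposite sides the widest were chr12:117719601-117726000 (6.4 kb), chr6:70712601-70717200 (4.6 kb), chr14:52931001-52937000 (6 kb) and chr6:40380801-40387000 (6.2 kb). Only in Igh and Tcra did a flank hold a zone of 10 kb or more.

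Zones of Igk and Tcrb had few neighbours, while most of those in Igh had many. Over all 4 loci the median zone had 8 others within 500 kb of its midpoint, with a range of 1 to 35. The median for the other autosomal zones was 23. By locus the medians were 29.5 in Igh, 16 in Tcra, 5 in Tcrb and 3.5 in Igk, so Igh lay above the autosomal median. At most 6 others were found around 15 of the 31 zones, as for 8.23% of autosomal zones, and these 15 included all zones of Igk and Tcrb. At most 2 others were found around 4 zones, all in Igk, as for 2.26% of autosomal zones. Each zone was then set against the median width of autosomal zones with the same number of neighbours. Of the 31, 19 were wider than that median and 12 narrower: 6 and 6 in Igh, 6 and 2 in Igk, 6 and 2 in Tcra, and 1 and 2 in Tcrb. By definition a median splits its own group about evenly, ties apart. The exact share of all autosomal zones above it was not computed, so these counts are no result about the loci.

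Among the loci the order of zone density was Igh, Tcra, Tcrb and Igk, from 4.29 down to 2.5 zones per Mb. In none of the 6 pairs did the exact conditional interval of the ratio exclude 1. For the highest against the lowest, Igh to Igk, the ratio was 1.71 (0.644 to 4.83). Igk and Tcrb, which share chromosome 6, had a ratio of 0.625 (0.15 to 3.66). Zone numbers this small do not settle the order of the loci.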

How the data were processed

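The authors' deposited list of zones pools 3 replicates, as the series' design text states. CASAVA 1.8, SICER and the mm9 build appear in the submitters' processing notes. Their settings, the use of the 2 controls and the treatment of reads that match several places are not given in the sources used here. The last point bears on loci built of similar segments. The deposited columns are chromosome, start and end. All zones lie on a 200 bp grid, and positions are printed counting from 1. Depth is unknown, and p-values over samples cannot be computed.

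The loci, lists and comparisons were chosen with earlier results of these data known. Zones were counted by 1 bp of overlap, the locus before its flanks. Shifted intervals had to lie inside the span from first to last zone and outside the 4 loci. Intervals are exact Poisson, or exact conditional (Clopper-Pearson) for ratios, at 95%. Named zones are all those of a locus with 10 or fewer, otherwise the 5 widest, first and last. The other zones of Igh, and the neighbours of the borders, were named after their values were seen. The widest zone of each flank and the longest stretch of each locus were also named. Alternatives changed the overlap rule, borders, flanks, zone filter, joining and shifts. Counting was tested on simulated lists. Python 3.11.15, numpy 2.4.6, scipy 1.17.1 and matplotlib 3.10.9 were used.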

Additional observations from a re-analysis of the deposited data

How the results depend on the processing

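The ratio of locus to flanks stayed below 1 in all 47 alternatives run. For Tcrb this holds for the point values only, as every interval computed for it reached above 1. Of 102 alternatives over ratios, shares and median widths, 88 stayed inside the interval set around the main value. For ratios and shares this was a 95% interval (for shares, binomial over the number of intervals that fit without overlap). For the median widths of Igk, Tcra and Tcrb it was the whole range of their zones, so those alternatives could hardly leave it. Leaving out shifted intervals without a zone changed nothing for Igh, Igk and Tcra, which had none. The count of 88 therefore includes outcomes that were fixed in advance. A reversal was defined only for the ratios of Igh, Igk and Tcra, whose intervals excluded 1, and none occurred. For Igh the ratio moved to 0.0498 by covered length, 0.0611 with borders 100 kb inward, 0.39 against the high flank alone and 0.0157 with borders 300 kb inward. Flanks moved with the borders at 100 kb and stayed at the given borders at 300 kb, so these ratios are not on the same footing. Its share of shifted intervals with as few zones moved to 37.5% by covered length, 5.18% with borders 100 kb inward and 0% with borders 300 kb inward. Moving the borders of Igh inward removes zones at its constant region end by construction. For Igk that share moved to 22.7% with borders 100 kb outward. Tcra moved to a ratio of 0.0592 and a share of 11.9% with borders 300 kb inward, and to a share of 46.7% by covered length. Tcrb moved to shares of 24.3% by covered length, 43.2% with borders 100 kb outward and 39.8% with borders 100 kb inward. Tcrb has no zone within 100 kb of either border, so its move inward removed none. Borders 300 kb inward drop 2 zones at the V end of Tcra and 4 at its constant end. Borders 100 kb outward take in the zones just outside Igk, 13.6 and 12.6 kb away, and Tcrb, 60.2 and 4 kb away. For the moves by covered length the cause was not tested. Borders 300 kb inward were chosen after seeing the data and not run for Tcrb. No paired analysis was possible because zones were deposited for pooled replicates, and for the same reason no replicate could be left out. Depth is unknown, so weak zones below the caller's threshold cannot be bounded.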
